A study of Mus musculus with 6 samples.

Results

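The genes of the T cell receptor complex and its coreceptors were followed in mouse spleen: Cd3d, Cd3e, Cd3g and Cd247, which encode the CD3 and zeta chains, the coreceptor genes Cd4, Cd8a and Cd8b1, and Lck, Zap70 and Lat, the kinases and the scaffold that act directly behind the receptor. Every probe of these 10 genes on the array was taken, with gene symbols given through the RefSeq accession of each probe. The array held 13 probes of the 10 genes, of 39429 probes and 20655 named genes in all. For 9 of the 10 genes a probe was bright enough to be tested.

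The T cell receptor recognises peptides held by MHC molecules but has no enzyme of its own, and signals through the CD3 and zeta chains. The coreceptors CD4 and CD8 bind the MHC molecule and bring the kinase Lck to the receptor, where it phosphorylates the CD3 and zeta tails. ZAP-70 docks on these tails and phosphorylates the scaffold LAT, on which the enzymes and adaptors of the calcium and Ras pathways assemble. In the spleen these genes are expressed by T cells of the white pulp, beside a larger number of B cells. Not all of them are confined to T cells.

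RNA was taken from spleens of male ICR mice, 8 weeks old at the start, that had all received cyclophosphamide, an alkylating drug that depletes lymphocytes, at 40 mg/kg by intraperitoneal injection for 5 days. Mice of the Medicine group (arrays 4, 5 and 6, the SA-H group of the study) were then given 1000 mg/kg per day of Sch A, schisandrol A, a lignan of Schisandra chinensis, by gavage for 4 weeks, and mice of the Model group (arrays 1, 2 and 3, the MOD group) were given distilled water in its place. Dose and duration are those of the labels, and the animal experiment of the paper names another dose and a shorter treatment for its SA-H group. The labels put Medicine samples at day 28 and Model samples at day 5, so time and treatment cannot be told apart if these days are those of sampling. No untreated mice were among the arrays, and nothing in the labels says that the 3 arrays of a group came from separate mice, so the p-values refer to differences among these samples and may reflect technical spread alone.

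Each RNA was labelled with Cy3 and hybridised to a 1-colour Agilent array. A level is given here as the log2 of the processed signal relative to the 75th percentile of its array, so that 0 is the brightness of that percentile. It compares arrays for 1 probe and not different probes. The 75th percentile of the signal was between 219.7 and 868 on Medicine arrays and between 599 and 840 on Model arrays, and 44.7% to 73.9% of the spots on Medicine arrays and 43.1% to 72.2% on Model arrays were well above background, as the scanner software calls it. Over the tested genes, Medicine array 4 correlated with the other arrays at 0.838 to 0.928, while the other 5 arrays correlated with each other at 0.909 to 0.975. The B cell markers typical of spleen were nearly all measured, with 14 of 16 well above background on every Medicine array and 15 of 16 on every Model array. The extraction text speaks of liver powder at some steps. Of 12 listed liver genes 4 (Apoa2, Serpina1a, Cyp2e1 and Tat) had a probe well above background on every array of a group, and of the other 8, Apoa1 and Ttr were well above background on no array and each probe of Alb, Apob, Fgb, Fga, Ahsg and Cps1 on 1 array of a group at most.

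None of the 9 tested receptor and coreceptor genes differed between the Medicine and the Model group at an unadjusted p under 0.05. In the processed scanner values 6 of them had a higher mean in the Medicine group (Cd3d, Cd3e, Cd3g, Cd4, Cd8a and Lat) and 3 a lower mean (Cd8b1, Lck and Zap70). The largest differences were those of Lck and Cd8b1, both lower in the Medicine group by about the same amount, and of Lat, higher in it. Among all 14474 tested genes and unnamed targets, 10.8% were higher and 12.5% lower at that threshold (limma, empirical Bayes). With 9 members a count of 0 cannot be told apart from these shares. The median log2 fold change of the 9 genes was 0.15, against -0.04 over all tested genes. No member and, over the whole array, 0% of the genes had a Benjamini-Hochberg adjusted p under 0.05, and the analysis of variance named in the methods of the study also gave 0 members at either threshold. In whole spleen RNA, the number of cells expressing a gene and its level in each such cell cannot be told apart.

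Among the receptor chains, Cd3d, which encodes CD3 delta, was at 1.63, 2.01 and 2.39 on Medicine arrays 4, 5 and 6, against 1.49, 1.06 and 2.27 on Model arrays 1, 2 and 3. Cd3g, which encodes CD3 gamma, was at -1.11, 0.11 and -0.17 on the Medicine arrays, against -1.05, -1.20 and -0.04 on the Model arrays. Both genes were high on Medicine arrays 5 and 6 and on Model array 3 and low on the other Model arrays, so that the groups overlapped. The log2 fold change was 0.40 for Cd3d (SE 0.37, 95% confidence interval -0.47 to 1.28, limma unadjusted p = 0.317) and 0.38 for Cd3g (SE 0.44, 95% confidence interval -0.65 to 1.41, limma unadjusted p = 0.417). Leaving out 1 array moved them between 0.13 (without Model array 2) and 0.73 (without Model array 3) for Cd3d and between 0.13 (without Medicine array 5) and 0.74 (without Model array 3) for Cd3g.

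Cd3e, which encodes CD3 epsilon, the chain that pairs with both of the others, had levels of 0.51, 0.68 and 0.25 on the Medicine arrays, against 0.35, 0.57 and 0.30 on the Model arrays. It had the smallest SD in the Model group of the 9 genes, and it was the only one not highest among the Model arrays on array 3. Its log2 fold change of 0.07 (SE 0.24, 95% confidence interval -0.48 to 0.62, limma unadjusted p = 0.770) turned negative, to -0.072, in a fit with a term for scan day. Cd247, which encodes the zeta chain that carries most of the phosphorylation sites of the receptor, was dim, at -4.51, -5.06 and -4.13 on the Medicine arrays, against -5.17, -5.22 and -4.29 on the Model arrays. Its only probe was well above background on Medicine array 5 alone, and no fold change is given for it.

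The 3 CD3 genes lie together on chromosome 9 (GRCm38.p6): Cd3g at chr9:44969572-44980431 on the minus strand, Cd3d at chr9:44981769-44987052 on the plus strand and Cd3e at chr9:44998735-45009663 on the minus strand. Cd3g and Cd3d are read away from each other from starts 1338 bp apart. The promoter windows of this pair are shown because both genes were high on the same arrays. They are the RefSeq windows (GRCm38.p6) from 250 bases before to 50 bases after the start, with capitals for matches, on either strand, to the E-box CAGNTG, to the Runx motif TGTGGT or TGCGGT and to the Ets motif AGGAAG.
Cd3d (chr9:44981536-44981835, plus strand): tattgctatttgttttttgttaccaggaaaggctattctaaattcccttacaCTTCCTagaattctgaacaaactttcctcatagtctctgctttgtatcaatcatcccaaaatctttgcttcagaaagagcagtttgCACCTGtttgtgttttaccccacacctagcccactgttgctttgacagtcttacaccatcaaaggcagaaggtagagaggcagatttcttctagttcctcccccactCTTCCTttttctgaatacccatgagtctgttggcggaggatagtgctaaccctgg
Cd3g (chr9:44980382-44980681, minus strand): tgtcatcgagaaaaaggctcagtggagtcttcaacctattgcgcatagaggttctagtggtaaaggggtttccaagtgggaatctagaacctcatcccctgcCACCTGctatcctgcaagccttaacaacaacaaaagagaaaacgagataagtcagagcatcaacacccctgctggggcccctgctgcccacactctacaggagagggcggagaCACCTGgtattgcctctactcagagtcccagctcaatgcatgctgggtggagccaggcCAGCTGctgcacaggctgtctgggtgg
The window of Cd3d held 1 E-box and 2 Ets matches, and that of Cd3g held 3 E-boxes and no Ets or Runx match. An E-box stands in 51.4% of all 32851 promoter windows of the table, an Ets match in 35.4% and a Runx match in 22.4%. Promoter windows were found for 8 of the 10 genes, 11 windows in all, of which 10 held an E-box, 8 an Ets match and 4 a Runx match. A match is a run of letters and not a measured binding site.

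Among the coreceptors, Cd4, which encodes the coreceptor for MHC class II, gave 1.19, 1.61 and 1.60 on the Medicine arrays, against 1.22, 1.11 and 1.60 on the Model arrays. The groups overlapped almost wholly, with a log2 fold change of 0.15 (SE 0.26, 95% confidence interval -0.45 to 0.76, limma unadjusted p = 0.565), between 0.05 without Model array 2 and 0.30 without Model array 3. A further Cd4 probe, printed in 10 spots, was dim, and was well above background on 1 of 3 Medicine arrays and 1 of 3 Model arrays.

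The CD8 genes had group differences of opposite sign, neither of which passed the test. Cd8a, which encodes the alpha chain found in every CD8 dimer, was at 0.23, 0.14 and 0.38 on the Medicine arrays, against -0.51, -0.54 and 0.50 on the Model arrays. Cd8b1, which encodes the beta chain of the heterodimer carried by conventional cytotoxic T cells, was at -1.83, -1.37 and -1.33 on the Medicine arrays, against -1.18, -1.22 and -0.14 on the Model arrays. The Medicine arrays thus lay together for Cd8a, between the low Model arrays 1 and 2 and the high Model array 3, whereas for Cd8b1 all of them lay below all Model arrays.

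The log2 fold change was 0.43 for Cd8a (SE 0.33, 95% confidence interval -0.35 to 1.22, limma unadjusted p = 0.234) and -0.66 for Cd8b1 (SE 0.36, 95% confidence interval -1.50 to 0.18, limma unadjusted p = 0.105). That of Cd8b1 was -0.31 without Model array 3. Cd8b1 was the only tested member whose groups did not overlap, lying lower in the Medicine group. Of all tested genes 20.7% were without overlap and lower, and 11.9% were without overlap and higher. The Cd8a value comes from a probe printed in 10 spots, and a further Cd8a probe was at -2.19, -3.67 and -3.05 on the Medicine arrays, against -3.30, -2.99 and -2.85 on the Model arrays, too dim to be kept. Cd8b1 (chr6:71322788-71337492) and Cd8a (chr6:71373427-71379171) lie 35935 bp apart. The window of Cd8a, shown for this pair, held 1 E-box and 1 Runx match.
Cd8a (chr6:71373177-71373476, plus strand): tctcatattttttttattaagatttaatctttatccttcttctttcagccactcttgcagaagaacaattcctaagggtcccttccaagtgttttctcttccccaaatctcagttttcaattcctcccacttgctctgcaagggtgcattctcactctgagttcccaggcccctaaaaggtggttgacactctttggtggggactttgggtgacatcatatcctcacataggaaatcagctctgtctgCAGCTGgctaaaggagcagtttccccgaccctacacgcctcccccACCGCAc

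Lck, the Src family kinase bound to both coreceptors, was at 2.17, 2.57 and 2.90 on the Medicine arrays, against 2.97, 2.80 and 3.92 on the Model arrays. Model array 3 was highest by far, and Medicine array 6 lay between Model arrays 2 and 1. The log2 fold change was -0.68 (SE 0.37, 95% confidence interval -1.54 to 0.19, limma unadjusted p = 0.106). Without Model array 3 it was -0.33.

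Zap70, the kinase that binds the phosphorylated receptor tails, had levels of 1.60, 1.47 and 1.26 on the Medicine arrays, against 1.42, 1.29 and 1.98 on the Model arrays. Its groups overlapped, with a log2 fold change of -0.12 (SE 0.27, 95% confidence interval -0.75 to 0.52, limma unadjusted p = 0.682), which became 0.093 without Model array 3. A further kept probe of Zap70 was at -1.51, 0.28 and 0.14 on the Medicine arrays, against -0.37, -0.21 and 0.33 on the Model arrays, with a difference of -0.28 (SE 0.50). The probes ordered the Medicine arrays differently, array 4 being highest on one and lowest on the other.

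Lat, the membrane scaffold phosphorylated by ZAP-70, was at 1.61, 1.67 and 1.33 on the Medicine arrays, against 0.54, 0.84 and 1.51 on the Model arrays. The Medicine arrays lay above Model arrays 1 and 2, and Model array 3 lay among them. The log2 fold change was 0.57 (SE 0.31, 95% confidence interval -0.15 to 1.29, limma unadjusted p = 0.105).

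**Figure D1:**
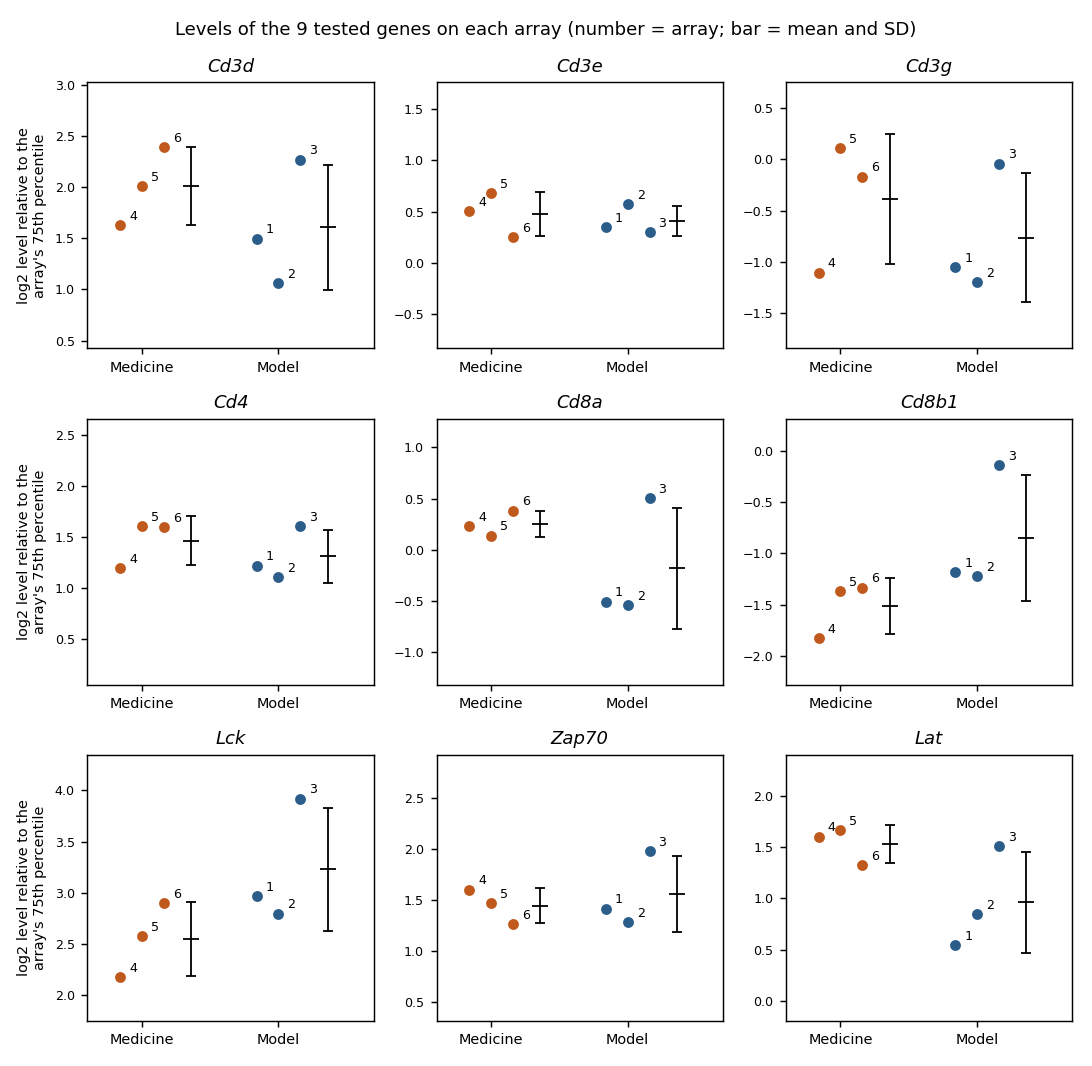
Levels of the 9 tested genes on Medicine arrays 4, 5 and 6 (left in each panel) and Model arrays 1, 2 and 3 (right), as log2 signal relative to the array's 75th percentile, with the group mean and SD beside the points; all panels span the same range. Model array 3 is the highest Model array for every gene but Cd3e, and Cd8b1 is the 1 gene whose groups do not overlap.

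Lck (chr4:129548344-129573641, minus strand) and Lat (chr7:126363827-126369705) had group differences of opposite sign, and their promoter windows are shown for that contrast. Mouse Lck is transcribed from an upstream and a downstream promoter, and the table has a window for each.
Lck, upstream window (chr4:129573592-129573891, minus strand): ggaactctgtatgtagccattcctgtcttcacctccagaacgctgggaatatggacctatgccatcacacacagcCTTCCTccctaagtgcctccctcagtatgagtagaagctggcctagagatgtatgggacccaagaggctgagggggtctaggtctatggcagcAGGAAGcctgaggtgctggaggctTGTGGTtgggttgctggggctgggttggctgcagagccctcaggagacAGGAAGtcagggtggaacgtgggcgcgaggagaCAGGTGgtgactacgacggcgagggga
Lck, downstream window (chr4:129558323-129558622, minus strand): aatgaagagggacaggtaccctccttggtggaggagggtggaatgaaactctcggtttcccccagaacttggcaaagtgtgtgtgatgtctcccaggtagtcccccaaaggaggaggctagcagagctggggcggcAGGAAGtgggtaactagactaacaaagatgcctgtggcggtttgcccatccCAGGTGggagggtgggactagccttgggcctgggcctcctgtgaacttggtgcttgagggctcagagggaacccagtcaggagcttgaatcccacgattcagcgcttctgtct
Lat (chr7:126369519-126369818, minus strand): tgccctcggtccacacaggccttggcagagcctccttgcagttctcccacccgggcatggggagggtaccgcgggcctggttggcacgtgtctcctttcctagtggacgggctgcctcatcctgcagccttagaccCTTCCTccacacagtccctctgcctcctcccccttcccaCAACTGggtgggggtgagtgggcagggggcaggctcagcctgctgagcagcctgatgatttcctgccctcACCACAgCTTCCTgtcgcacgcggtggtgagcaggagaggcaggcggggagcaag
The upstream window of Lck held 1 E-box, 1 Runx match and 3 Ets matches, the downstream window 1 E-box and 1 Ets match, and the window of Lat 1 E-box, 1 Runx match and 2 Ets matches. Each kind of motif was thus found in a window of either gene.

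**Figure D2:**
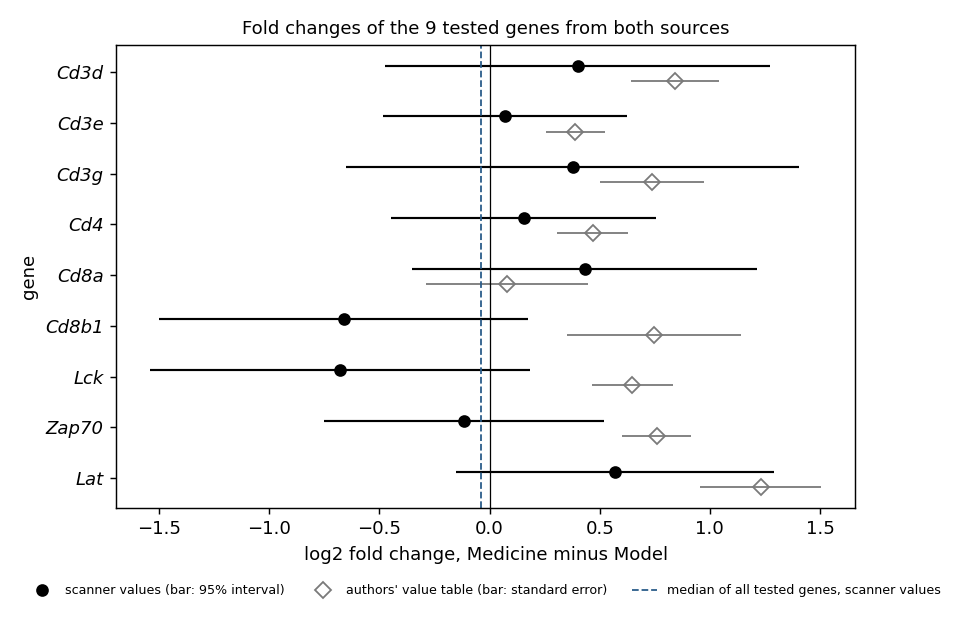
Log2 fold change, Medicine minus Model, of each tested gene from the scanner values (filled circles, bars for the 95% confidence interval) and from the authors' value table (open diamonds, bars for the standard error), with the median of all tested genes in the scanner values as a dashed line. Every scanner interval includes 0, and Cd8b1, Lck and Zap70 lie on opposite sides of 0 in the 2 sources.

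The direction of Cd8b1, Lck and Zap70 depended on which deposited values were used, and the other tested genes had a higher mean in the Medicine group in both. In the value table of the series, which holds log2 values that the authors had processed, all 9 genes had a higher mean in the Medicine group, and 7 of them (Cd3d, Cd3e, Cd3g, Cd4, Lck, Zap70 and Lat) were higher at an unadjusted p under 0.05 in the same limma fit, against 16.3% of all tested genes. After adjustment over all tested genes 3 members passed, Zap70 (0.76, SE 0.16, limma adjusted p = 0.0345), Lat (1.23, SE 0.27, limma adjusted p = 0.0406) and Cd3d (0.84, SE 0.20, limma adjusted p = 0.0462), against 12.3% of the genes in either direction. The median log2 fold change of the 9 genes was 0.74 there.

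Lck, lower in the Medicine group in the scanner values, was at 12.4, 11.8 and 12.2 in the Medicine columns of the table, against 11.3, 11.5 and 11.6 in the Model columns. Its groups did not overlap, and the difference was 0.65 (SE 0.18, limma unadjusted p = 0.0114). Cd8b1 was at 7.56, 6.11 and 7.28 in the Medicine columns, against 5.91, 6.28 and 6.52 in the Model columns, and its groups overlapped, Medicine column 5 lying below Model columns 2 and 3. Cd8a was low in the same column, with 9.38, 8.19 and 9.10 in the Medicine columns, against 8.38, 8.77 and 9.28 in the Model columns, and its difference was 0.08.

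The columns of the table did not follow the scanner arrays of the same name. Over 12140 genes well above background on all 6 arrays, the rank correlation between a column and its own array was 0.797 to 0.898. Only 1 of 6 columns ranked highest with its own array. Columns 2, 3, 4, 5 and 6 all ranked highest with Medicine array 5, which had the most spots well above background (73.9%). That count therefore says little about which column belongs to which array. After subtracting from every gene its average over the arrays, the correlation between a column and its own array ran between -0.28 and 0.48. By this measure 3 of 6 columns were closest to their own array. Model column 3, at -0.28 with its own array, was closest to Medicine array 4 (0.31), an array of the other group. In the authors' values 14 of 15 tested erythroid markers and 9 of 11 platelet markers were lower in the Medicine group at a limma unadjusted p under 0.05. This compares with 16.4% of all tested genes, and the medians were -2.49 and -1.67. Of the B cell markers 7 of 15 were higher at that threshold, against 16.3% of all tested genes, with a median of 0.31. In the scanner values these medians were -0.67, 0.15 and -0.11. Their part in the result was not tested.

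Much of the spread within the Model group lay with array 3. Of the 9 tested genes 8 were highest among the Model arrays on array 3. The share of all tested genes highest there was not computed, so the count is not known to be particular to these genes. As deviations from the average of each gene, the median of the 9 was -0.18, 0.20 and 0.08 on Medicine arrays 4, 5 and 6. On Model arrays 1, 2 and 3 it was -0.17, -0.28 and 0.47. Without Model array 3 Cd8a (0.77, limma unadjusted p = 0.0226) and Lat (0.84, limma unadjusted p = 0.0226) were higher in the Medicine group at an unadjusted p under 0.05, 2 of 9 genes, against 8.21% of all genes tested in that fit. The median of the 9 was then 0.30. Without Medicine array 4, the array least like the others, 0 members passed and the median was 0.29.

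Some of the other lists were high on the same array. The other T cell markers stood at -0.55, 0.15 and 0.30 on the Medicine arrays, against -0.22, -0.42 and 0.58 on the Model arrays, and 17 of 18 were highest among the Model arrays on array 3. For the B cell markers the medians were -0.30, 0.08 and 0.17 on the Medicine arrays, against -0.0025, -0.034 and 0.32 on the Model arrays, with 11 of 15 highest there, and for the dendritic cell markers 9 of 11 were. The kinases and adaptors had a median of 0.37 on that array, with 18 of 22 highest there among the Model arrays. The NK cell markers were at -0.16, -0.39 and -0.089 on Model arrays 1, 2 and 3 (5 of 12 highest on array 3). The genes of the CD8 lineage were at -0.59, -0.39 and -0.099 (2 of 4). For these 2 lists array 3 was also the highest Model array, but their median there stayed below their average over all arrays. For these counts, too, the share of all tested genes highest on array 3 was not computed. The part of these lists in the spread of the receptor genes was not tested.

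The named genes whose centred levels lay closest to the mean profile of the 9 receptor genes over the 6 arrays were Vipr1, a receptor for vasoactive intestinal peptide found on T cells, with a root mean square difference of 0.02 log2 units, Crybg1 (0.05), Echdc2 (0.05), Zfp296 (0.06) and Ppp1r13b (0.08), of 9087 genes compared. The receptor genes themselves were farther from their own mean than these, which were picked as the closest, between 0.13 for Cd4 and 0.40 for Lck. The median over all genes compared was 0.45. The profile was low on Medicine array 4 and Model arrays 1 and 2 and highest on Model array 3.

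Log ratios between members on the same array remove what raises or lowers them together. Only their change between groups has a meaning, since probes differ in brightness. The ratio of Cd8a to Cd8b1 was 2.06, 1.51 and 1.72 on the Medicine arrays, against 0.67, 0.68 and 0.64 on the Model arrays. The ratio of Cd3d to Lck was -0.55, -0.57 and -0.51 on the Medicine arrays, against -1.47, -1.73 and -1.65 on the Model arrays. Both ratios were apart between groups, by 1.09 and 1.08 log2 units. The ratio of Cd3d to Lck was tight in both groups (SD 0.03 on the Medicine and 0.13 on the Model arrays), and that of Cd8a to Cd8b1 only in the Model group (SD 0.28 on the Medicine and 0.02 on the Model arrays), where the 3 Model values of the CD8 ratio were level although both genes were over 1 unit higher on Model array 3 than on Model array 2.

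The ratio of Lck to Lat was likewise apart, with 0.57, 0.91 and 1.57 on the Medicine arrays, against 2.42, 1.95 and 2.41 on the Model arrays. The ratio of Cd3d to Cd3g overlapped, with 2.73, 1.90 and 2.55 on the Medicine arrays, against 2.55, 2.26 and 2.31 on the Model arrays. Of the 36 pairs of tested members 12 (33.3%) did not overlap between the groups, and Cd8b1 and Lck were each part of 5 of these. Over all 104741101 pairs of tested genes the share was 33.3% as well, so such pairs were no more frequent among the members than on the array as a whole. With 3 arrays against 3 an exact two-sided permutation test cannot go below p = 0.10, which these 12 pairs reached, and the Benjamini-Hochberg value over the 36 pairs was 0.30. In the value table the ratio of Cd8a to Cd8b1 was apart in the opposite direction, with a difference of -0.67, and of the 12 pairs 1 was apart in the same direction.

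**Figure D3:**
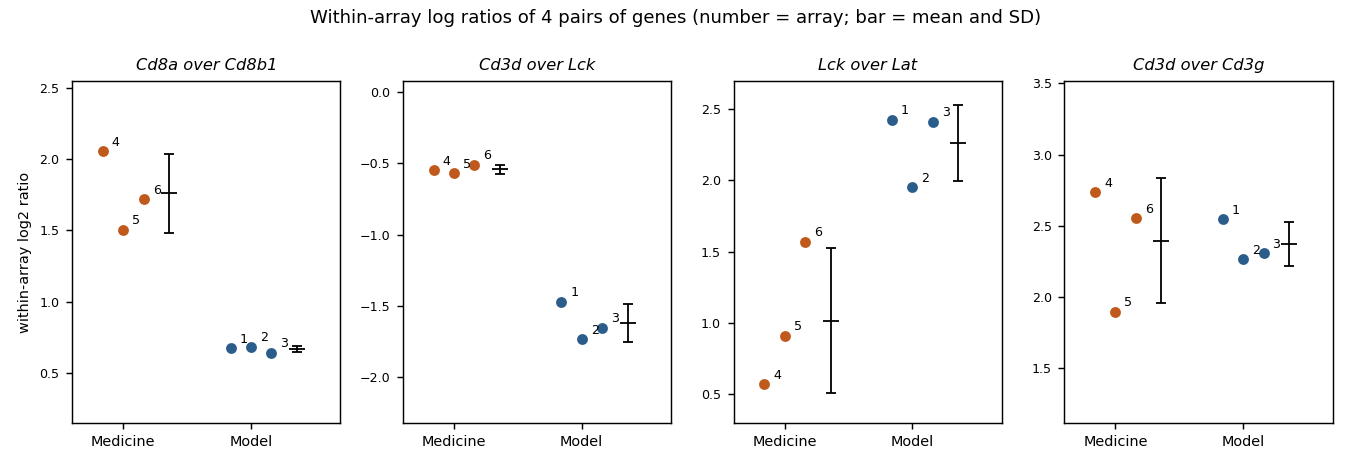
Within-array log2 ratio of 4 pairs of members on Medicine arrays 4, 5 and 6 (left) and Model arrays 1, 2 and 3 (right), with the group mean and SD; all panels span the same range. The ratios of Cd8a to Cd8b1, Cd3d to Lck and Lck to Lat do not overlap between the groups, and that of Cd3d to Cd3g does.

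Set against the mean of the 3 CD3 genes on each array, a scale chosen after the values were seen, Lck was at 1.83, 1.64 and 2.07 on the Medicine arrays, against 2.70, 2.65 and 3.08 on the Model arrays. Cd8b1 was at -2.17, -2.30 and -2.16 on the Medicine arrays, against -1.45, -1.37 and -0.98 on the Model arrays. The groups overlapped for neither gene, and the differences were -0.96 for Lck (SE 0.32, limma unadjusted p = 0.0173, limma adjusted p = 0.164) and -0.94 for Cd8b1 (SE 0.31, limma unadjusted p = 0.0166, limma adjusted p = 0.163). On this scale 18.1% of all tested genes were lower at that threshold, 25.2% were lower without overlap, and the median of all genes was -0.32, against -0.04 on the percentile scale.

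Of 27 listed kinases and adaptors that act with or after these genes, 22 were tested, 2 were higher and 0 lower in the Medicine group at an unadjusted p under 0.05. Over all tested genes 10.8% were higher and 12.5% lower, so the count of higher genes was near the background. The median log2 fold change was 0.15, against -0.04 over all tested genes. In the authors' own values 12 of the 22 were higher and 0 lower, against 16.3% and 16.4% of all tested genes, with a median of 0.51. Fyb, the adaptor ADAP that links the receptor to integrins, was at 2.27, 2.33 and 2.38 on the Medicine arrays, against 1.57, 1.05 and 1.25 on the Model arrays. Grap2, the adaptor GADS that ties SLP-76 to LAT, was at 0.46, 0.0034 and 0.17 on the Medicine arrays, against -1.05, -0.22 and -0.46 on the Model arrays. Neither gene overlapped between the groups, with log2 fold changes of 1.04 for Fyb (SE 0.24, limma adjusted p = 0.0907) and 0.79 for Grap2 (SE 0.29, limma adjusted p = 0.179). Of all tested genes 11.9% were without overlap and higher. In the authors' own values the difference was 0.60 for Fyb and only 0.09 for Grap2. Txk, a Tec family kinase of T cells, and Skap1, the partner of ADAP, differed by 0.69 (SE 0.31) and 0.54 (SE 0.31) and did not pass.

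Of the inhibitors and phosphatases of the pathway, 18 of 20 were tested, 1 was higher and 0 were lower, with a median of -0.13. Over all tested genes 10.8% were higher and 12.5% lower, and counts this small cannot be told apart from these shares. In the authors' own values 10 of the 18 were higher and 0 lower, against 16.3% and 16.4% of all tested genes. The median had the opposite sign there, 0.33. The gene that was higher was Dgka, a diacylglycerol kinase that takes away the lipid on which the Ras branch depends. It was at 2.98, 3.64 and 3.70 on the Medicine arrays, against 1.85, 2.62 and 2.36 on the Model arrays, a log2 fold change of 1.16 (SE 0.32, limma adjusted p = 0.111). The ubiquitin ligase gene Cbl, well above background on 2 of 3 Medicine arrays and so kept only through the Model group (-1.65, SE 0.72), the adaptor gene Dok2 (-0.63, SE 0.28) and the phosphatase gene Ubash3b (0.51, SE 0.27) had the next smallest p-values and did not pass.

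In the calcium and NFAT arm 14 of 15 genes were tested, 0 were higher and 1 was lower, with a median of 0.12. Over all tested genes 10.8% were higher and 12.5% lower. The gene that was lower was Nfatc1, which encodes a transcription factor freed by calcineurin. It was at -2.60, -1.57 and -1.26 on the Medicine arrays, against 0.14, -0.37 and -0.49 on the Model arrays. Its groups did not overlap, with a log2 fold change of -1.57 (SE 0.39, limma adjusted p = 0.0974), but its probe was well above background on 2 of 3 Medicine arrays and was kept only through the Model group. Its level on Medicine array 4 was below the lowest level called well above background there (-2.59), so the size of the difference is not a measured one. In the authors' own values Nfatc1 differed by -0.34. There 5 of the 14 genes of this arm were higher and 2 lower, against 16.3% and 16.4% of all tested genes. Nfatc1 is also expressed outside T cells, in B cells and in the macrophage lineage, and the macrophage markers had a median of -0.55. Their median centred levels were -1.14, 0.04 and 0.19 on Medicine arrays 4, 5 and 6, against 0.48, 0.19 and 0.24 on Model arrays 1, 2 and 3. The low value thus lay with Medicine array 4. In the authors' own values the median fold change of the macrophage markers was 0.02. Their part in the result was not tested.

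Of the other T cell markers 18 of 20 were tested and none passed in either direction (limma, 0 at unadjusted p under 0.05), with a median of 0.11, or 0.35 without Model array 3. In the authors' own values 12 of the 18 were higher and 0 lower, against 16.3% and 16.4% of all tested genes, with a median of 0.62. The genes with the smallest p-values were Slamf1 (-0.70, SE 0.30), S1pr1 (-0.71, SE 0.36), Ikzf3 (0.84, SE 0.52) and Ets1 (-0.87, SE 0.56). These genes are not confined to T cells, and Ikzf3, unlike the others, was lowest among the Model arrays on array 3 (-1.88). Among the genes of the CD4 lineage 7 of 9 were tested, 1 was higher and 0 lower at a limma unadjusted p under 0.05. Over all tested genes 10.8% were higher and 12.5% lower, so this was near the background. The gene that passed was Foxp3, the factor of regulatory T cells, at -2.14, -2.29 and -2.36 on the Medicine arrays. On the Model arrays it was at -3.41, -2.68 and -3.09, a log2 fold change of 0.79 (SE 0.26, limma adjusted p = 0.152). Its probe was well above background on 2 of 3 Model arrays and was kept only through the Medicine group, where it was higher. Its level on Model array 1 was below the lowest level called well above background there (-2.98), so the size of the difference is not a measured one. In the authors' own values 4 of the 7 CD4 lineage genes were higher and 0 lower, against 16.3% and 16.4% of all tested genes. Among the genes of the CD8 lineage 4 of 8 were tested, 1 was higher and 0 lower. With 4 genes this count cannot be told apart from the shares over all tested genes. The gene that passed was Runx3, the factor that silences Cd4 in cytotoxic T cells, at 0.05, 0.02 and 0.05 on the Medicine arrays. On the Model arrays it was at -1.43, -0.67 and -1.05, a log2 fold change of 1.09 (SE 0.26, limma adjusted p = 0.0937).

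Markers of other spleen cells were counted at the same threshold, which 10.8% of all tested genes passed as higher and 12.5% as lower. Of 12 tested NK cell markers 4 were higher and 0 lower, with a median of 0.43, among them Gzma and Prf1, which encode a granzyme and perforin and are shared with cytotoxic T cells, with log2 fold changes of 0.86 (SE 0.29) and 0.79 (SE 0.29). Klra4 (0.85, SE 0.24) and S1pr5 (0.75, SE 0.30) were the others. In the authors' own values 1 of the 12 was higher and 3 were lower, against 16.3% and 16.4% of all tested genes, with a median of -0.06. Gzma (-0.80), Klra4 (-1.0045) and Prf1 (-0.17) had the opposite sign there. Of 15 erythroid markers 5 were lower and 0 higher, with a median of -0.67, Epb42 of the red cell membrane skeleton having a log2 fold change of -1.62 (SE 0.33). Of 15 B cell markers 2 were higher and 0 lower, near the background, with a median of -0.11. These were Spib (0.80, SE 0.29) and Fcer2a (1.06, SE 0.45). The groups overlapped for Fcer2a, and its probe was well above background on only 2 Model arrays. It was kept only through the Medicine group, where it was higher. Ribosomal protein genes had a median of 0.52, and 0.79 centred log2 units on Medicine array 4 against -0.15 and 0.23 on Medicine arrays 5 and 6. How far any of these lists bears on the receptor genes was not tested.

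**Figure D4:**
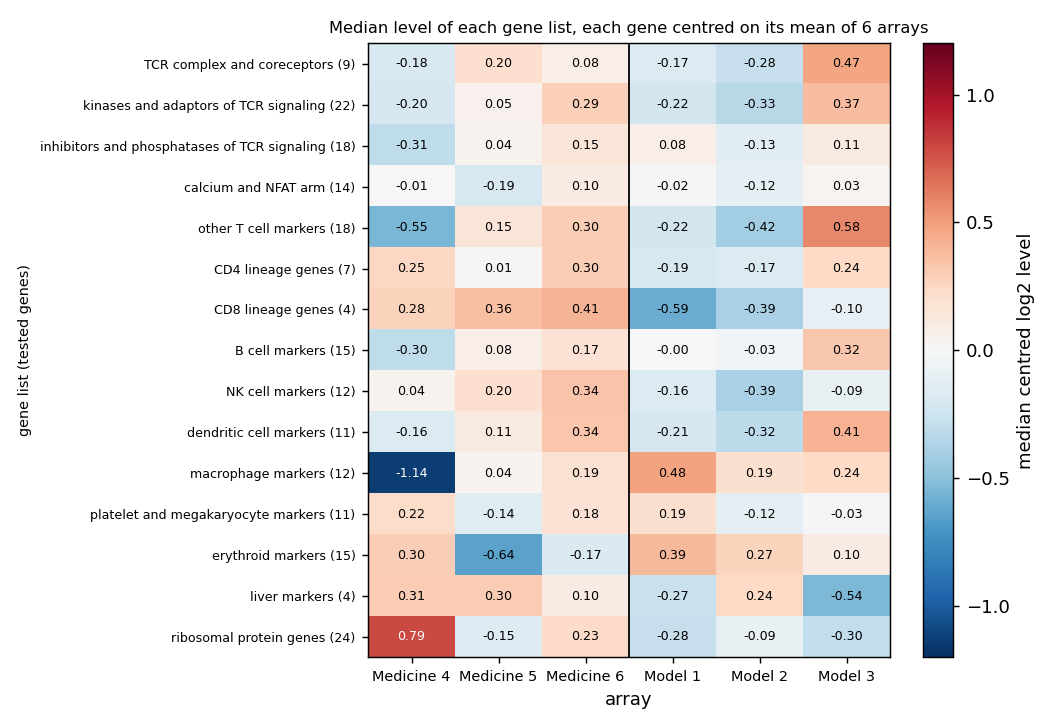
Median level of each gene list on each array, in log2 units after subtracting from every gene its average, for Medicine arrays 4, 5 and 6 (left of the line) and Model arrays 1, 2 and 3 (right); the number of tested genes is in parentheses. The receptor genes (0.47), the other T cell markers (0.58) and the dendritic cell markers (0.41) are highest on Model array 3, and the macrophage markers are lowest, at -1.14, on Medicine array 4.

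**Figure D5:**
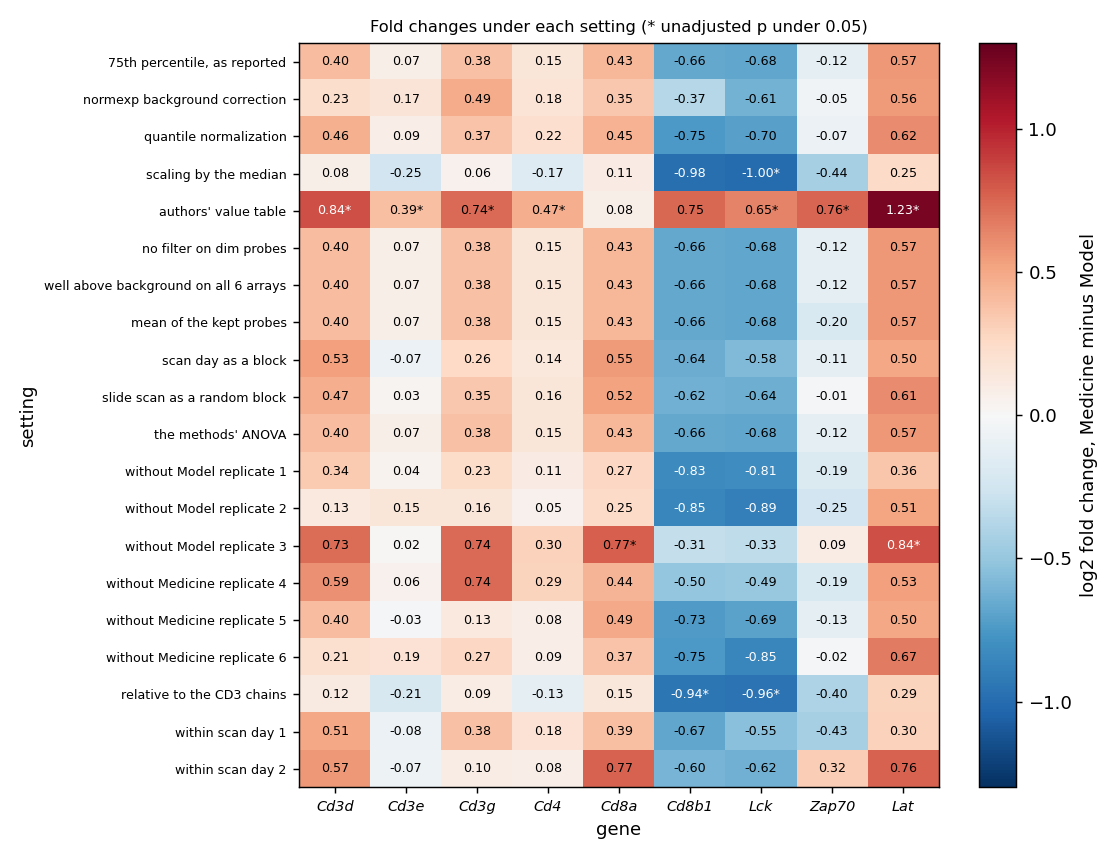
Log2 fold change, Medicine minus Model, of each tested member (columns) under each setting (rows), with an asterisk where the unadjusted p was under 0.05; within a scan day no p is given. Cd8b1 and Lck are below 0 and Lat and Cd8a above 0 in every row, apart from the authors' value table for Cd8b1 and Lck.

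The arrays were scanned on 3 days, and days 1 and 2 held both groups. Within day 1 (Medicine array 6 against Model arrays 1 and 3) the log2 fold change was -0.67 for Cd8b1, -0.55 for Lck, 0.39 for Cd8a and 0.30 for Lat. Within day 2 (Medicine array 4 against Model array 2) it was -0.60 for Cd8b1, -0.62 for Lck, 0.77 for Cd8a and 0.76 for Lat. These 4 genes kept their sign within each day and in the fit with a term for scan day (-0.64, -0.58, 0.55 and 0.50), while Zap70 was at -0.43 within day 1 and 0.32 within day 2. Arrays with the same recorded scan time were taken as 1 slide scan, so the slide scan is inferred from that time. On day 1 the groups were of different slide scans by this rule, so group and slide scan cannot be told apart there. Day 2 set 1 array against 1, with Medicine array 4 the array least like the others. The 4 genes had the largest differences over these same arrays, so their kept sign is no independent support.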

How the data were processed

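Cy3-labelled spleen RNA of 3 Medicine and 3 Model samples was measured on 1-colour Agilent arrays. The authors read each array with Agilent Feature Extraction 11.0.1.1, and the deposited intensity values are its background-subtracted signals, with low values set to a small positive number per the file headers and no normalization across arrays. A further deposited file gives the authors' own log2 values for the same 6 names. Its columns share their median (5.34) and upper quartile (8.60), as after quantile normalization, and how it was made is not given in the sources used here. No source states the log base, and base 2 was inferred from the size of the values.

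Control spots and outlier spots were left out, the log2 processed signal was taken relative to the array's 75th percentile over 43020 spots, and spots of a probe were averaged. Probes had to be well above background throughout at least 1 group, and a gene was represented by its brightest such probe, which gave 14474 genes and unnamed targets, 11001 with a symbol. Accessions gave symbols to 69.1% of the 39429 probes through the RefSeq gene table of GRCm38.p6, from which the positions and promoter windows also come. Differences, Medicine minus Model, were fitted by limma 3.58.1 (R 4.3.3) with a linear model and empirical Bayes, checked on simulated data, and p-values were adjusted by Benjamini-Hochberg over every gene in the fit. Intervals are 95% confidence intervals. Exact permutation tests were run with scipy 1.17.1. The number of arrays limits the precision.

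Alternatives were normexp background correction (offset 50), quantile normalization, scaling by the median, the authors' values, other probe filters and choices, the scan day or slide scan as a block, the methods' analysis of variance and leaving out each array. The scanner files used here hold the median and not the mean foreground signal, so normexp was run on the median signal. Scaling to the CD3 genes, tests of single probes, values within scan days and pair ratios were added after seeing the data. The members and the 15 gene lists were chosen with earlier results of these data known. Named in the text are all members, up to 4 tested genes with the smallest unadjusted p of each other list described, and the 5 genes closest in profile. The array's probe sequences were not used here.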

Additional observations from a re-analysis of the deposited data

How the results depend on the processing

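The counts of members below the threshold of 0.05 were 0 lower, 0 higher and 0 after adjustment in the fit reported, and stayed there under normexp, quantile normalization, the other probe filters, both batch fits and the methods' analysis of variance. Scaling by the median lowered all genes (median -0.36, against -0.04), so that the median of the members became -0.17, that of the kinases and adaptors -0.17, and 1 member, Lck (-0.999), was lower. Cd3e and Cd4 turned to -0.25 and -0.17 under it. In the authors' value table the medians were 0.74 and 0.51, 7 members were higher, 3 passed adjustment, and Cd8b1, Lck and Zap70 turned to 0.75, 0.65 and 0.76. The cause was not tested. Relative to the CD3 genes 2 members were lower, and Cd3e and Cd4 turned to -0.21 and -0.13. Cd3e also turned to -0.072 with the scan day as a block, to -0.076 within day 1 and to -0.067 within day 2, and Zap70 to 0.32 within day 2. Leaving out 1 array gave medians of 0.08 to 0.30 for the members and 0.02 to 0.36 for the kinases and adaptors, 0 to 2 members higher, 0 to 0 lower and 0 to 0 after adjustment. Over these fits Cd3e ran between -0.029 (without Medicine array 5) and 0.19, and Zap70 between -0.25 and 0.093 (without Model array 3). Scaling by the median gave 1094 and the scan day block 1075 adjusted calls over all genes, against 0 in the fit reported, and normexp gave 210, none of them members. No paired analysis was possible because the labels give the groups no shared replicate numbers. Signal over background limits Cd247 and the dim probes of Cd4 and Cd8a, which allow no comparison.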
